A study of Homo sapiens with 19 samples.

Results

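SQSTM1, KLF10, RXRA and GNA11 are 4 genes that carry some of the highest AKAP8 binding peaks in human mammary epithelial cells. They were chosen by peak height, so the heights below describe them and are not tested. They belong to 2764 protein-coding genes with at least 1 AKAP8 peak on their own strand in either cell state, of which 2479 had a peak in the epithelial state (EPI) and 1543 in the mesenchymal state (MES). AKAP8 binding was measured by single-end eCLIP, in which RNA crosslinked to the protein is immunoprecipitated, sequenced and compared with an input library. The cells were HMLE/Twist-ER, a Tert-immortalized human mammary epithelial line in which tamoxifen activates Twist, a transcription factor that drives epithelial-mesenchymal transition (EMT). EPI cells were untreated, and MES cells had received 20 nM tamoxifen until their shape was mesenchymal. Each state had 2 AKAP8 and 2 input eCLIP libraries, combined by the authors into a single peak list per state. RNA-seq of poly(A) RNA came from the same states, with cells that stably expressed a non-specific shRNA (EPI_Control, n = 3; MES_Control, n = 3) or an shRNA against AKAP8 (EPI_shAKAP8, n = 3; MES_shAKAP8, n = 2). All cells in these groups carry Twist-ER, and the RNA-seq groups also carry a lentiviral shRNA. Beyond Rep numbers, the labels do not say how the libraries of a group were separated, so p-values measure only the spread between libraries.

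AKAP8 is a nuclear scaffold protein of the A-kinase anchoring family that also binds RNA and takes part in splice site choice. The 4 genes work in different pathways. SQSTM1 encodes the selective autophagy receptor that links ubiquitinated cargo to the forming autophagosome and that sequesters KEAP1, the inhibitor of the transcription factor NRF2. KLF10 encodes a zinc finger transcription factor that is induced early by TGF-beta. RXRA encodes a nuclear receptor that pairs with retinoic acid, vitamin D, thyroid hormone, PPAR and LXR receptors. GNA11 encodes an alpha subunit of the Gq family of G proteins, which activates phospholipase C beta downstream of many receptors. RNA-binding proteins that contact introns can act on nearby exons, so the position of a peak relative to exons and to measured splicing events is given for each gene.

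The sequences under some of the strongest peaks of SQSTM1, RXRA and GNA11 are shown with their runs of G, which nearly all AKAP8 peaks carried. KLF10 peaks are not shown, nor is the highest SQSTM1 MES peak, which held 1 G run in 33 nt. The sequences shown are read 5′ to 3′ on the transcribed strand of GRCh37, which is the plus strand for these 3 genes. Capitals mark runs of 3 or more G. The first line is the 30-nt window with the most G-run bases in the highest SQSTM1 peak (chr5:179248612-179248641), and the second is the next SQSTM1 peak in EPI (chr5:179248804-179248904). The RXRA lines are the highest MES peak (chr9:137256116-137256181) and the highest EPI peak (chr9:137250198-137250294). The GNA11 lines are the highest MES peak (chr19:3104868-3104978), the highest EPI peak (chr19:3106076-3106137), and the second-highest peaks of EPI (chr19:3105384-3105441) and MES (chr19:3105442-3105498).
SQSTM1 window in the highest EPI peak: cgcGGGtaaacaagcgcGGGGGtgcGGGGG
SQSTM1 second EPI peak: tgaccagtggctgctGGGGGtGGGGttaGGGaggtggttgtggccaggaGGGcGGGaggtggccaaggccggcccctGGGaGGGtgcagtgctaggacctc
RXRA highest MES peak: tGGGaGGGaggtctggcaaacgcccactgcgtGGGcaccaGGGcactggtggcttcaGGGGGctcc
RXRA highest EPI peak: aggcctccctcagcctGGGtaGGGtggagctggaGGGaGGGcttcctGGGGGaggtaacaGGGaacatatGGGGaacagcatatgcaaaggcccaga
GNA11 highest MES peak: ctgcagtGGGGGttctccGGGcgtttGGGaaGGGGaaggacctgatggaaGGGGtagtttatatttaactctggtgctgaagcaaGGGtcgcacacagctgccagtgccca
GNA11 highest EPI peak: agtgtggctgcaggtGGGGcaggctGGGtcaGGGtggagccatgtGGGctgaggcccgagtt
GNA11 second EPI peak: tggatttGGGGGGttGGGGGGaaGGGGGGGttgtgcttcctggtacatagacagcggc
GNA11 second MES peak: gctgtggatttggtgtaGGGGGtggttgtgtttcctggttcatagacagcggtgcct

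The highest SQSTM1 peak held 8 G runs in 131 nt, the highest RXRA MES peak 5 in 66 nt and the highest GNA11 MES peak 6 in 111 nt. The second GNA11 peaks of EPI and MES lay directly next to each other. They resembled each other, with 44 identical bases over an alignment of 63 positions (69.8%), and the top-scoring part of this site was the upstream unit in EPI and the downstream unit in MES. How reads were divided between such similar neighbouring units is not given in the sources used here.

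G runs were about 3 times as dense under the peaks of SQSTM1 as in the rest of the gene. Peaks that overlapped or touched on the same strand within a list were merged into sites, because the lists hold overlapping entries. Only entries with a log2 enrichment over input of at least 2 and a -log10 adjusted p of at least 3 were used, and a site took the value of its highest entry. The sites of SQSTM1 held 6.81 G runs per 100 nt in EPI and 6.55 in MES, against 2.12 in the gene outside its sites. KLF10 sites held 7.81 in EPI and 7.61 in MES, against 1.05 outside. RXRA sites held 6.29 in EPI and 5.70 in MES, against 2.61 outside, and GNA11 sites held 6.24 in EPI and 5.48 in MES, against 2.68 outside. G runs were not a feature of these genes alone. All 11216 EPI sites held 6.53 per 100 nt and all 14151 MES sites 5.73, and a G run was present in 99.5% of EPI sites and 97.8% of MES sites. The search letters were GGG on the transcribed strand, and CCC gives the same run on the opposite strand. Runs of 3 or more C were rarer in the members' sites than outside them, for example 0.768 per 100 nt in SQSTM1 EPI sites against 1.77 outside. These are descriptions of sequence under called peaks and carry no test.

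**Figure D1:**
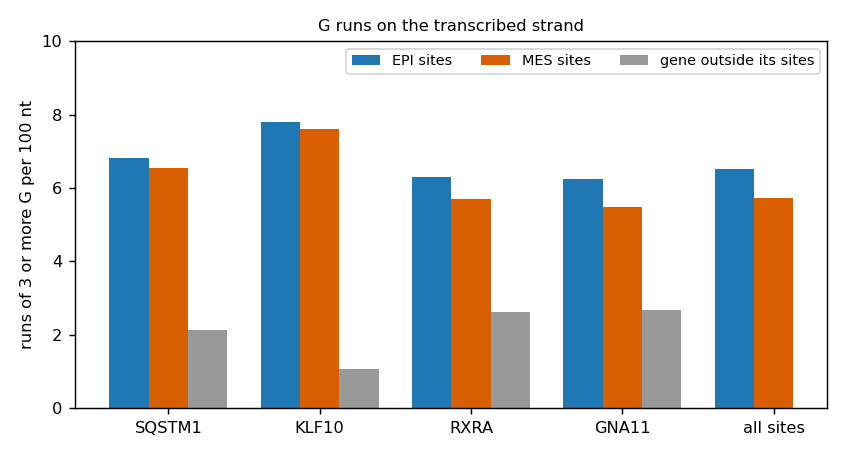
Runs of 3 or more G per 100 nt on the transcribed strand (y axis) in the EPI sites (blue) and MES sites (orange) of each gene and of all genes, and in the gene outside its sites (grey). Each of the 4 genes has more G runs in its sites than outside them, and the sites of all genes together hold 6.53 in EPI and 5.73 in MES.

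Measured by the highest peak of each gene, SQSTM1 and KLF10 led in EPI and RXRA and GNA11 in MES. SQSTM1 had the highest peak of all EPI genes, at a log2 enrichment of 7.10, and ranked 517 of 1543 genes in MES, at 4.15. KLF10 ranked 3 in EPI (6.97) and 193 in MES (4.96). RXRA ranked 24 in EPI (6.30) and 2 in MES (6.66), and GNA11 ranked 129 in EPI (5.58) and 3 in MES (6.60). The 4 genes are not simply the highest ones, because PLEC, which encodes the cytoskeletal linker plectin, ranked 2 in EPI (7.07) and 1 in MES (6.71). After PLEC, the highest peaks in either state outside the 4 genes were those of MICALL2 (6.90 in EPI), TSPAN4 (6.80), PLCH2 (6.67) and PRNP (6.57), the last of which had no MES site. The lists give 1 combined value per peak and no read counts, so the depth behind a peak is unknown and no spread between replicates can be given.

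**Figure D2:**
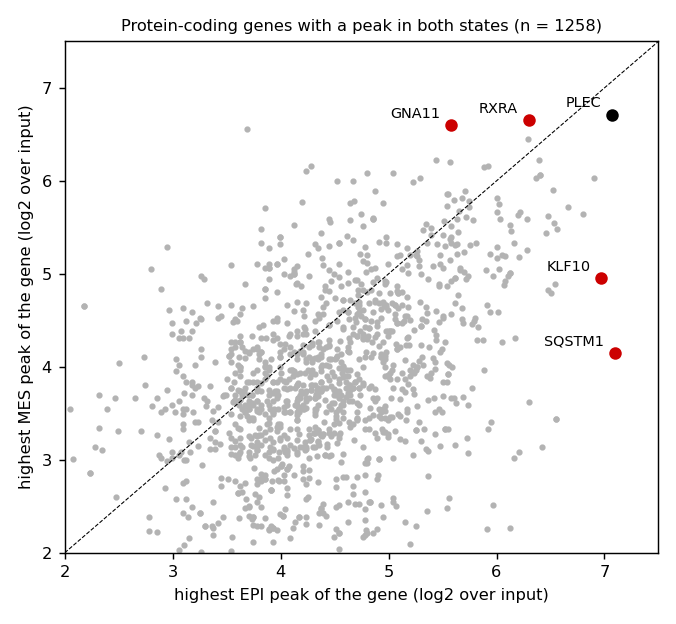
Highest AKAP8 peak of each of 1258 protein-coding genes with a peak in both states, as log2 enrichment over input in EPI (x axis) and in MES (y axis). The 4 genes are red and PLEC is black, and the dashed line marks equal height. SQSTM1 (7.10 and 4.15) and KLF10 (6.97 and 4.96) lie below it, and RXRA (6.30 and 6.66) and GNA11 (5.58 and 6.60) above it.

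The genes reached these heights with very different numbers of sites. RXRA carried 144 sites in EPI, the most of any gene, and 294 in MES, which ranked 3, where the median gene with a peak had 2 in either state. Its sites covered 10.3% of its 123.488 kb in EPI and 17.1% in MES. GNA11 had 24 sites in EPI and 49 in MES over 29.638 kb. SQSTM1 had 9 in EPI and 6 in MES, and KLF10 had 4 in each state. The median log2 enrichment of a gene's sites lay between 2.94 (SQSTM1 in MES) and 5.50 (KLF10 in EPI), where the median over all sites was 3.75 in EPI and 3.45 in MES. Per kb of gene, RXRA had 1.17 sites in EPI and 2.38 in MES, GNA11 0.810 and 1.65, KLF10 0.576 in both and SQSTM1 0.284 and 0.189. The median gene with a peak had 0.0574 in EPI and 0.0755 in MES.

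In SQSTM1 the strongest sites sat at the 5′ end of the main transcript, and the highest lay in an alternative exon. The gene spans chr5:179233398-179265078 on the plus strand, and the GENCODE canonical transcript starts inside it, so sites before that start fall in the longer alternative transcripts. The highest EPI site (chr5:179248558-179248688) and the highest MES site (chr5:179248553-179248698) overlap each other 417 and 412 nt into the first intron. An annotated exon of 157 nt (chr5:179248551-179248707) of the nonsense-mediated decay transcript SQSTM1-204 contains both. A second transcript, SQSTM1-216, which is annotated as protein-coding, has an exon of 17 nt with the same start that ends at the same stop codon, and both sites overlap it in part. The EPI site covered 83.4% of the exon of 157 nt and the MES site 93.0%, and the annotation places a stop codon after its first 14 nt. None of the 15 splicing tables holds a row for this exon, so its inclusion was not measured here. The next EPI sites stood at 4.93 (chr5:179248804-179248907, in the same intron) and 3.89 (chr5:179247699-179247801, 104 nt before the canonical first exon). The next MES sites stood at 3.90 (chr5:179248378-179248412, in the same intron) and 3.04 (chr5:179247712-179247804, 101 nt before the canonical first exon).

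KLF10 had all its sites near the 5′ end of its first intron. The gene lies on the minus strand at chr8:103661012-103667953, and its first intron is 3168 nt long. All 4 sites of each state were in that intron, between 388 and 1182 nt from the gene start, and with gaps of up to 100 nt allowed they formed 1 cluster of 884 nt. The highest EPI site (log2 enrichment 6.97) was 256 nt long and was joined from 8 entries. The other leading EPI sites had 5.55 and 5.45. In MES the order differed, with 4.96 for a site of 68 nt that had no EPI counterpart, then 4.04 and 3.92. No site of either state touched an annotated KLF10 exon.

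RXRA was bound along nearly its whole length. The gene spans chr9:137208944-137332431 on the plus strand, with a first intron of 74972 nt that makes up 60.7% of it. This intron held 115 of 144 EPI sites (79.9%) and 231 of 294 MES sites (78.6%), or 1.53 and 3.08 sites per kb against 0.598 and 1.3 per kb in the rest of the gene. Only 2 sites in each state touched a canonical exon, and 8 EPI and 21 MES sites touched an exon of any annotated transcript. Over 500 nt from the nearest exon of any annotated transcript lay 126 EPI and 250 MES sites. The 3 strongest EPI sites had 6.30, 6.09 and 6.0, and the 3 strongest MES sites 6.66, 6.36 and 6.32, all in the first intron. The 3 EPI sites lay at least 10260 nt, and the 3 MES sites at least 7636 nt, from an exon of any annotated transcript. With the sites of both states joined and gaps of up to 100 nt allowed, RXRA had 188 clusters. Of these, 68 had at least 2 regions and the largest 5, and the rest were single regions.

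GNA11 resembled RXRA on a smaller scale. It spans chr19:3094360-3123997 on the plus strand, and its first intron of 15361 nt makes up 51.8% of the gene. That intron held 20 of 24 EPI sites (83.3%) and 41 of 49 MES sites (83.7%). The densities there were 1.3 and 2.67 sites per kb, against 0.280 and 0.560 elsewhere. No site touched an exon of any annotated transcript. The 3 strongest MES sites had 6.60, 5.94 and 5.63, and the 3 strongest EPI sites 5.58, 5.26 and 5.01. All of these sites had a counterpart in the other state. The counterpart of the highest MES site had 4.71 in EPI, and that of the highest EPI site had 4.78 in MES. The second-highest site was the same in both states, at chr19:3105384-3105487 in EPI and chr19:3105383-3105501 in MES.

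**Figure D3:**
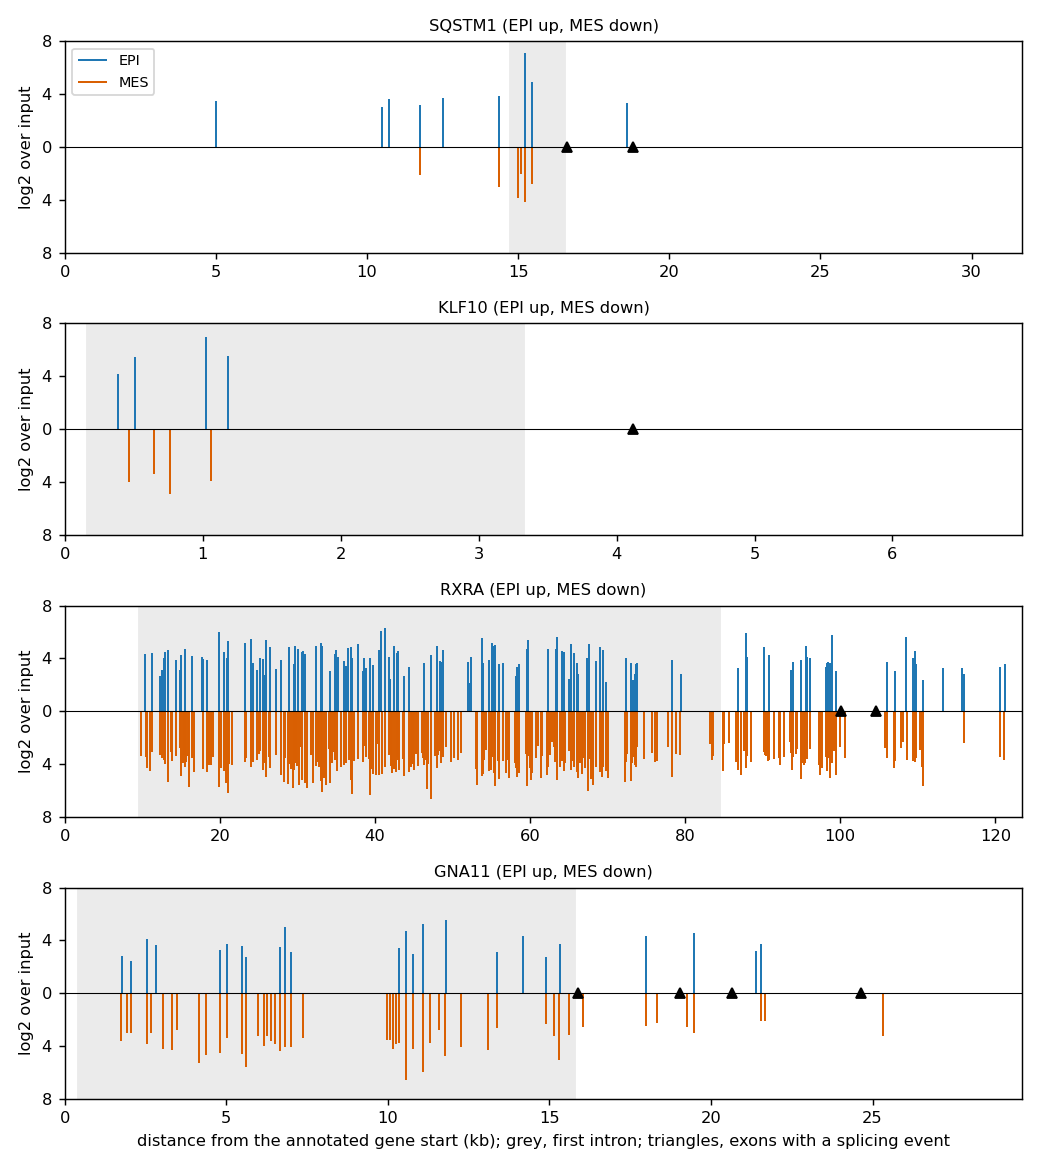
AKAP8 sites along each gene, by distance of the site centre from the annotated gene start (x axis, kb), with bar height as log2 enrichment over input, EPI upward in blue and MES downward in orange. Grey marks the first intron and triangles the exons with a splicing event. SQSTM1 and KLF10 have few sites, and the strongest lie near the 5′ end of the main transcript. In SQSTM1, 6 of 9 EPI sites and 2 of 6 MES sites lie before that transcript. RXRA (294 in MES) and GNA11 (49 in MES) carry sites along the first intron and beyond it.

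Between the states, shared regions of SQSTM1 and KLF10 were lower in MES. Those of RXRA and GNA11 lay on both sides of equal height, with medians of 0.10 and 0.55. Sites of the states that overlapped by at least 1 base or touched were joined into regions. SQSTM1 had 11 regions, 4 with a site in both states, and all 4 were lower in MES, with differences from -2.95 to -0.86 on the log2 scale. KLF10 had 4 regions, 2 of them in both states, which fell by 1.40 and 3.05 in MES. RXRA had 296 regions, with 131 in both states, 7 in EPI only and 158 in MES only. Its shared regions had a median difference of 0.10 (MES minus EPI), and 71 of them were higher in MES. GNA11 had 51 regions, 21 of them in both states, 3 in EPI only and 27 in MES only, and the median difference of its shared regions was 0.55. Over all genes the median of 5308 shared regions was -0.54, with 7.72% higher in MES by over 1 and 32.3% lower by over 1. Of the RXRA shared regions 30 were higher by over 1 and 17 lower, and of the GNA11 shared regions 6 were higher and 3 lower. For SQSTM1, 3 of 4 were lower by over 1, and for KLF10 both. Since the genes were chosen on peak height in either state, these differences are given as a description. A region called in a single state was not always without signal in the other: 3 of 5 SQSTM1 EPI regions and 28 of 158 RXRA MES regions had an entry below the cutoffs in the other list.

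**Figure D4:**
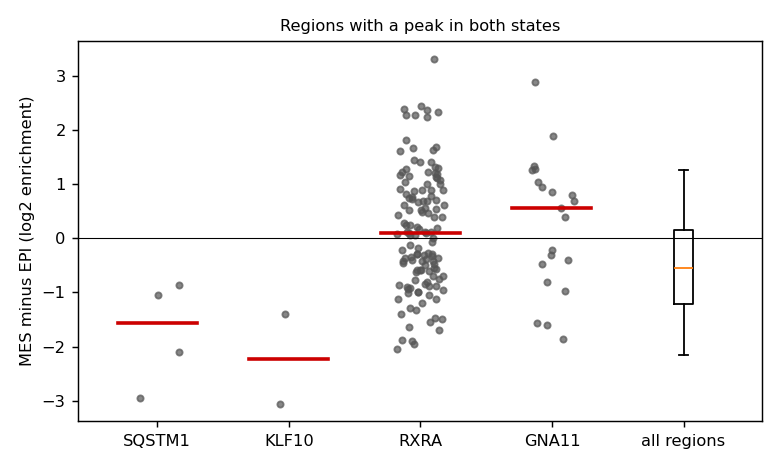
Difference in log2 enrichment (MES minus EPI, y axis) for regions with a peak in both states, 1 point per region, with red lines at the median of each gene. The box at the right shows all 5308 shared regions (median -0.54, quartiles as box edges, whiskers at the 5th and 95th percentiles). All 4 SQSTM1 and both KLF10 points lie below 0, and RXRA and GNA11 points lie on both sides.

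None of the splicing events measured in the 4 genes passed the test in any comparison. Inclusion was measured as PSI, the percentage of transcripts that include a variable exon, computed from junction reads divided by effective lengths. All 15 rows of the tables that belong to these genes were skipped exon events, and they describe 11 distinct events (3 in SQSTM1, 1 in KLF10, 2 in RXRA and 5 in GNA11). An event was called at an FDR under 0.05 with a PSI difference of at least 10 points, which 0.0492% of tested events passed after knockdown in EPI, 0.054% after knockdown in MES and 1.59% in the comparison of MES_Control with EPI_Control. Of the 15 rows, 14 had at least 20 reads per library on average and were tested. The quasi-binomial test called 0, and 0 had an unadjusted p under 0.05. Limma on logit PSI also called 0. Every tested exon was almost always included. The lowest PSI in any library was 96.6%, the largest difference was 1.94 points, and no library had more than 4 skipping reads for a tested event. A difference of 10 points was therefore out of reach, and neither test could have called a tested row.

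The SQSTM1 exon of 81 nt (chr5:179252146-179252226) was the only event listed in all 3 comparisons. Its inclusion reads were 1170, 1438 and 1089 in EPI_Control, 1989, 2002 and 855 in EPI_shAKAP8, 2453, 1821 and 1291 in MES_Control, and 6073 and 4144 in MES_shAKAP8. Skipping reads over the libraries of a group numbered 5, 2, 5 and 0. PSI was thus 99.7% ± 0.183 (SD, n = 3) in EPI_Control and 99.9% ± 0.0523 (n = 3) in EPI_shAKAP8 (adjusted p = 0.705). In MES it was 99.8% ± 0.297 (n = 3) in the control cells, and 100% in both knockdown libraries, with an adjusted p of 0.763 against the 2 controls of that table. The difference of the knockdown effect between the states was also not significant for this exon (adjusted p = 0.678 over 30197 SE events). An EPI site lay 114 nt before it with a log2 enrichment of 3.33, and the nearest MES site was 3242 nt away.

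The largest difference belonged to an SQSTM1 exon of 96 nt (chr5:179249958-179250053). Spliced to the downstream exon starting at 179260032, its inclusion reads were 123, 126 and 89 in EPI_Control and 77, 113 and 56 in EPI_shAKAP8. Skipping reads were 0 in EPI_Control and 3 in EPI_shAKAP8, which gives 100% and 98.1% ± 1.74 (SD, n = 3) and an adjusted p of 0.705. It lies 1051 nt beyond the nearest EPI site. With its usual downstream exon the same exon stood at 100% in the control cells and 99.9% after knockdown.

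In KLF10 the large internal exon of 913 nt (chr8:103663377-103664289) had 0 skipping reads in EPI_Control and 4 in MES_Control, all 4 in a single library. PSI was 100% in EPI_Control and 99.7% ± 0.548 (n = 3) in MES_Control (adjusted p = 0.669). Its nearest site was 2464 nt away in EPI and 2439 nt in MES. KLF10 had no row in the tables of the knockdowns.

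The RXRA exon of 170 nt (chr9:137309004-137309173) had 367 and 302 inclusion reads in MES_Control and 373 and 466 in MES_shAKAP8, with 1 skipping read in all. In the EMT table it had 515, 540 and 369 inclusion reads in EPI_Control and 367, 302 and 317 in MES_Control, again with 1 skipping read. Adjusted p-values were 0.763 for the knockdown and 0.672 for EMT. This exon had 4 MES sites and 1 EPI site within 1000 nt, the nearest of them 59 nt away in MES (2.75). The second RXRA event had 0.5 reads per library and was not tested.

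GNA11 had 5 events over 4 exons, and all stood at 99.5% or more in each group. The exon of 155 nt (chr19:3113328-3113482) had 390, 436 and 316 inclusion reads in EPI_Control and 486, 443 and 401 in EPI_shAKAP8, with 0 and 2 skipping reads. The exon of 185 nt (chr19:3110147-3110331) ended at 99.5% ± 0.293 (n = 2) in MES_shAKAP8 against 100% in both MES_Control libraries, with 3 skipping reads in all (adjusted p = 0.763). A MES site lay 30 nt from that exon with a log2 enrichment of 2.58, and 5 MES sites lay within 1000 nt. The strongest GNA11 sites were 5169 nt (MES) and 3927 nt (EPI) from the nearest exon.

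SQSTM1 reads rose after AKAP8 knockdown in MES, and none of the other 3 genes passed both thresholds in a comparison where it had a level. KLF10 had no level after either knockdown, and RXRA had none after knockdown in EPI. Junction reads of splicing events served as a proxy for gene level. Reads of SE events listed in all 3 comparisons were summed per gene, scaled by median-of-ratios factors and tested over 9014 genes with limma on log2(scaled reads + 1). Of the 4 genes only SQSTM1 had such an event. Its scaled reads were 1113, 1416 and 1127 in EPI_Control, 1906, 1999 and 890 in EPI_shAKAP8, 2404, 1858 and 1365 in MES_Control and 5820 and 4141 in MES_shAKAP8. Both MES_shAKAP8 libraries lay above all other libraries, and the EPI groups overlapped. The log2 fold change was 1.43 in MES (SE 0.326, adjusted p = 0.0305), 0.31 in EPI (SE 0.291, adjusted p = 0.836) and 0.59 for EMT in control cells (SE 0.291, adjusted p = 0.162). Genes were called at an absolute log2 fold change over 1 and an adjusted p under 0.05, which 1.1% passed upward and 1.18% downward after knockdown in MES, 0.0777% and 0.111% in EPI, and 5.38% and 7.16% for EMT. The knockdown effects in MES and EPI differed by 1.11 (SE 0.437), with an adjusted p of 0.711 over all genes in limma, so a difference between the states was not shown. Leaving out 1 library moved the EPI log2 fold change between 0.10 (without the second EPI_shAKAP8 library) and 0.69 (without the third), with adjusted p-values of at least 0.347. The call in MES was lost without any 1 of 5 libraries, the second or the third MES_Control, either MES_shAKAP8 or the first EPI_Control, with log2 fold changes from 1.18 to 1.67 and adjusted p-values up to 0.220.

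The knockdown itself was visible in these reads. AKAP8 had 266 ± 37.8 scaled reads in EPI_Control (SD, n = 3) and 115 ± 14.0 in EPI_shAKAP8 (n = 3), a log2 fold change of -1.20 (adjusted p = 0.0664). In MES it had 275 ± 96.2 in MES_Control (n = 3) and 115 ± 9.62 in MES_shAKAP8 (n = 2), a log2 fold change of -1.20 (adjusted p = 0.0322). Knockdown and control libraries did not overlap in either state. EMT markers separated the states as labelled: all 5 epithelial markers with a value fell (CDH1 fell by 4.34 on the log2 scale) and all 10 mesenchymal markers with a value rose (VIM rose by 1.77). None of either list passed limma's test after knockdown, and in MES 1 epithelial and 4 mesenchymal markers had an unadjusted p under 0.05 (0 and 4 in EPI), as did 21.8% of all genes in MES and 9.86% in EPI. After knockdown in MES, where SQSTM1 rose, the median log2 fold change of the epithelial markers was -0.41 and that of the mesenchymal markers 0.42. The mesenchymal markers went both ways, for example 1.04 for PDGFRB and -1.40 for S100A4. The part of the markers in the SQSTM1 result was not tested. In bulk RNA, fewer cells of a type and less RNA per cell cannot be told apart. SE events held 31258177 to 40852217 junction reads per library.

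The other genes had levels only within single tables, whose values are scaled separately and cannot be set side by side. In the EMT table KLF10 had 462, 459 and 584 scaled reads in EPI_Control and 689, 887 and 878 in MES_Control, without overlap. The log2 fold change was 0.70 (SE 0.173, adjusted p = 0.0101), below the threshold of 1. RXRA went the other way, with 488, 526 and 378 in EPI_Control and 362, 306 and 332 in MES_Control, a change of -0.47 (SE 0.185, adjusted p = 0.0743), also without overlap. GNA11 had 353, 465 and 350 in EPI_Control and 621, 610 and 440 in MES_Control, a change of 0.51 (SE 0.198, adjusted p = 0.0687), and its groups overlapped. After knockdown in MES, GNA11 had 1459 and 1153 in MES_Control and 1781 and 2046 in MES_shAKAP8, a change of 0.56 without overlap (SE 0.171, adjusted p = 0.0713). RXRA had 365 and 309 against 364 and 473, a change of 0.30 (SE 0.219, adjusted p = 0.406). In EPI, GNA11 changed by 0.29 (SE 0.170, adjusted p = 0.714). These fits of single tables called 0.0198% of genes after knockdown in EPI, 3.77% in MES and 16% for EMT. In them SQSTM1 rose by 1.23 in MES (SE 0.20, adjusted p = 0.00978) from the same MES_shAKAP8 libraries.

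**Figure D5:**
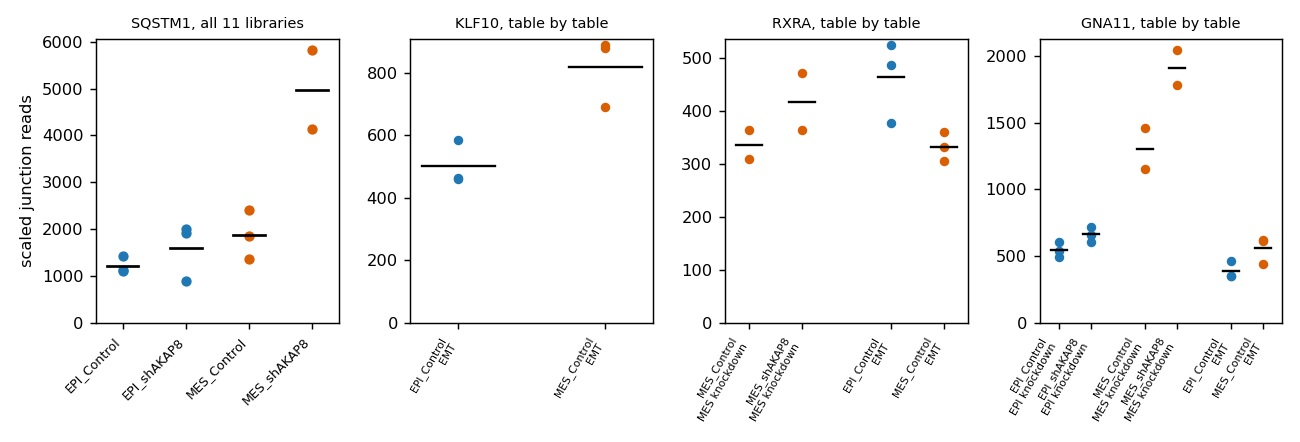
Scaled junction reads per library (y axis), 1 point per library and black lines at group means, for SQSTM1 over all 11 libraries and for KLF10, RXRA and GNA11 within each table that lists them. Panels of different tables are scaled separately. The 2 MES_shAKAP8 libraries of SQSTM1 (5820 and 4141) stand above all others, and the knockdown groups of RXRA in MES overlap.

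SQSTM1's pattern over 11 libraries was most like that of FLCN (Pearson r = 0.97), SPNS1 (0.97) and SRA1 (0.97) among the genes tested, all of which were highest in MES_shAKAP8. FLCN encodes folliculin, a regulator of lysosomal signalling, and SPNS1 a lysosomal transporter. The libraries share groups and depth, so these correlations are descriptions.

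Some genes of the pathways around each member were called, that is, passed both the adjusted p and the fold threshold. Of all 9014 genes, 1.1% were called higher and 1.18% lower after knockdown in MES. The shares were 0.0777% and 0.111% after knockdown in EPI, and 5.38% and 7.16% for EMT. The lists were not tested as sets. Of 27 genes of selective autophagy and NRF2 signalling apart from SQSTM1, 23 had a value, and after knockdown in MES only ULK1, the kinase that starts autophagosome formation, was called (log2 fold change 1.64, SE 0.403, adjusted p = 0.0387). BECN1, which encodes the autophagy protein beclin 1, went the other way, with log2 fold changes of -0.92 in MES (SE 0.153, adjusted p = 0.00697) and -0.74 in EPI (SE 0.137, adjusted p = 0.0467), and missed the threshold of 1 in both. The median log2 fold change after knockdown in MES was 0.03 in this list, -0.06 in the TGF-beta and KLF list, 0.10 in the nuclear receptor list and -0.13 in the Gq list, against -0.01 over all genes. For EMT only PRKCZ, an atypical protein kinase C, was called in the autophagy list, and it fell by 2.88 on the log2 scale (adjusted p = 6.45e-05). Of 13 TGF-beta and KLF genes with a value, KLF3 rose after knockdown in MES (1.11, adjusted p = 0.0366), KLF4 rose in EMT (2.10, adjusted p = 0.000239) and KLF7 fell (by 1.56, adjusted p = 0.00179). Of 18 nuclear receptors and cofactors with a value, NR1H2, which encodes an LXR receptor, rose after knockdown in MES (1.25, adjusted p = 0.00676). In EMT, PPARG rose by 4.49 (adjusted p = 3.52e-05) and NCOA1 by 1.96, while THRB fell by 2.40, NR4A1 fell by 1.95 and RARG fell by 1.1. Of 18 Gq signalling genes with a value, PRKCA rose in EMT (2.03, adjusted p = 8.77e-06), and 0 were called after knockdown in MES. None of the genes in the 4 lists was called after knockdown in EPI. An unadjusted p under 0.05 after knockdown in MES, which 21.8% of all genes had, was found for 5 of 23 genes of the autophagy list, 4 of 13 of the TGF-beta and KLF list, 8 of 18 of the nuclear receptor list and 3 of 18 of the Gq list. In EPI, where 9.86% of all genes had one, the counts were 2, 1, 5 and 0.

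Some genes of each of the 4 lists were bound as well. Of all 20149 annotated protein-coding genes, taken without a filter on expression, 12.3% had a site in EPI and 7.66% in MES. The lists were chosen with earlier results known and were not matched to these genes for expression. A higher share in a list therefore does not show preferred binding of its pathway. In the autophagy list 5 of 27 had a site in EPI and 5 in MES, and these were in part different genes. TOLLIP, an adaptor of ubiquitin-binding autophagy, was the strongest in both states (5.44 and 4.35). In the TGF-beta and KLF list 15 of 26 had a site in EPI and 7 in MES. SKI, a repressor of TGF-beta signalling, had 76 EPI and 204 MES sites, up to 6.36 and 6.03. In the nuclear receptor list 8 of 26 had a site in EPI and 5 in MES, led by RARA in EPI (5.50). In the Gq list 14 of 26 had a site in EPI and 9 in MES, led by GNB1 in EPI (5.24) and GNAI2 in MES (5.51). These shares are descriptions with no test.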

How the data were processed

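The members and gene lists were chosen with earlier results of these data known. RNA-seq reads were aligned by the authors to GRCh37 with STAR 2.6.1a, and the 15 rMATS tables hold the junction reads per event of each group as deposited, with the libraries listed in order and without numbers. The 30 columns of per-sample PSI and the authors' comparison columns, including their gene table, were not used. In the peak lists the authors deposited, columns hold the -log10 adjusted p and the log2 of IP over input, merged over 2 replicates by the authors' eCLIP pipeline.

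PSI was tested with a quasi-binomial F test, with dispersions moderated by limma 3.58.1 (R 4.3.3) on a trend of rarer-form reads. Events with fewer than 10 rarer-form reads took the trend value alone, so their own libraries did not enter the dispersion. Gene levels were tested with limma on log2 values. Adjusted p-values were by the Benjamini-Hochberg method, for events within an event type and comparison, and for genes across all genes tested. Genes needed 10 scaled reads in 2 libraries. Both tests were tried on simulated data. The MES knockdown tables hold 2 of the 3 MES_Control libraries. Fits of single tables were added after seeing the data. GENCODE v44 in GRCh37 coordinates gave genes and exons, with bedtools 2.31.1 and samtools 1.23.1, and named by the rule of the 3 strongest sites per gene and state, the tested events, the 5 next highest genes and the 3 most similar genes.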

Additional observations from a re-analysis of the deposited data

How the results depend on the processing

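No paired analysis was possible because the tables list the libraries of a group without replicate numbers. The number of changed splicing events in the 4 genes was 0 in all 3 comparisons under every alternative run, which were a dispersion trend that was not robust, limma on logit PSI, a minimum of 10 reads, no read filter, a PSI difference of 0.05, 3 MES controls, and leaving out each library (0 to 0). In the tested rows no library had a PSI under 96.6%, so a PSI difference of 0.05 was out of reach. For those rows the alternatives could not have changed the count. The number of sites depended on the cutoffs. With a log2 of at least 4 and a -log10 p of at least 5, the count was, for SQSTM1, 2 sites in EPI and 1 in MES, for KLF10 2 in MES, for RXRA 71 in EPI and 134 in MES, and for GNA11 7 in EPI and 17 in MES; sites were merged anew from the entries that passed. With 0 nt allowed between sites KLF10 had 4 clusters and RXRA 296, and with 500 nt RXRA had 41 and GNA11 10. For SQSTM1 after knockdown in MES, leaving out 1 library gave log2 fold changes from 1.18 to 1.67, with the call lost in 5 of 11 cases; a lone MES_shAKAP8 library was assumed to vary like the other groups. The other 105 gene level alternatives kept their direction and the call by adjusted p and fold together, while in 9 of them the adjusted p alone crossed 0.05. These were KLF10 for EMT (up to 0.0510 without 1 library), RXRA (down to 0.0353) and GNA11 (down to 0.0216) for EMT, SQSTM1 for EMT (0.0386 with only the 2 groups, 0.0421 in its own table) and GNA11 in MES (0.0179 without 1 library). Junction reads miss genes with no listed event, and the depth behind peaks is unknown.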
